A study of Homo sapiens with 4 samples.

Results

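The 7 genes described here encode the modifier ISG15 and the listed enzymes that attach it to proteins or remove it again. They were *ISG15*, the activating enzyme gene *UBA7*, the conjugating enzyme gene *UBE2L6*, the ligase genes *HERC5*, *HERC6* and *TRIM25*, and the protease gene *USP18*. The genes were chosen by name and function, with earlier results of these data known, and the paper had reported *ISG15* as lower after *FLI1* knockdown. Their calls are therefore not independent evidence. All 7 were found by their Entrez identifiers among the 46660 gene identifiers of the deposited table. The data comprised 4 RNA-seq libraries of the established human glioblastoma cell lines U87MG and U251MG. For each line, 1 library came from control cells that carried the empty lentiviral vector pGreen, which the sample titles call shControl. The other came from cells that carried a lentiviral short hairpin RNA against *FLI1* (shFLI1), an ETS family transcription factor. Cells of every group were infected in the presence of polybrene, selected with puromycin and collected as a mixed stable population, so no group is a single clone. The labels describe 2 hairpins against *FLI1* and do not say which was in a given shFLI1 library. Since the treatment label gives the control vector as empty, carrying a hairpin and losing *FLI1* cannot be told apart in these groups. The comparison asks how the RNAs of the ISG15 system stood after *FLI1* knockdown in each line.

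ISG15 is a ubiquitin-like protein that type I interferon induces strongly. It is joined to lysines of target proteins through a cascade of an activating (E1), a conjugating (E2) and a ligase (E3) enzyme, a process called ISGylation, and it also acts unconjugated inside and outside the cell. Most genes of the cascade are themselves interferon-stimulated, through the transcription factor complex ISGF3, which contains STAT2 and binds the interferon-stimulated response element (ISRE). 

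The promoters of *ISG15* and *HERC5* are shown because they were the windows of these genes that held an ISRE core. The core searched was GAAA, any 2 bases, GAAA, on both strands, in 300 bases around each RefSeq gene start on GRCh38.p14, from 250 bases before the start to 50 bases from it. The reference table held 6 windows for 5 of the 7 genes, *ISG15*, *UBE2L6* with 2 windows, *HERC5*, *HERC6* and *TRIM25*, and no window for *UBA7* or *USP18*. The core was in 3.574% of the 35116 windows of all genes. Each sequence reads 5′ to 3′ on the strand of the gene, with the bases of ISRE cores in capitals. The *ISG15* window is chr1:1013247-1013546 on the plus strand and the *HERC5* window is chr4:88456869-88457168 on the plus strand.
ISG15: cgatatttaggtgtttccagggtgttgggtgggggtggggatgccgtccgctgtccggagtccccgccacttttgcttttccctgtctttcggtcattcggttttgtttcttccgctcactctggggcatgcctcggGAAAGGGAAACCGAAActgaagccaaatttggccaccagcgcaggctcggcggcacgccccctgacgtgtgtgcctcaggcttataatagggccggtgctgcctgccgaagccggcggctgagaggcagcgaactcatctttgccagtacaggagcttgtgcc
HERC5: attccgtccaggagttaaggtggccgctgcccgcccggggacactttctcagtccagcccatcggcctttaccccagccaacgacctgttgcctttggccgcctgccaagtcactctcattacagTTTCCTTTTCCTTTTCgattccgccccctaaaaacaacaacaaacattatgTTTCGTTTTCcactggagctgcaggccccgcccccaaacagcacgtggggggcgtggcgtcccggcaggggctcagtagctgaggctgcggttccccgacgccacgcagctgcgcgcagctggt
In *ISG15*, 2 cores on the gene's own strand overlapped, from 113 to 104 and from 107 to 98 bases upstream of the start. In *HERC5*, 3 cores lay on the opposite strand and so appear above as their reverse complement. A pair of them overlapped, from 125 to 116 and from 119 to 110 bases upstream, and the third ran from 74 to 65 bases upstream. The other motifs searched had no exact match in the 6 windows. These were the STAT element TTCNNNGAA, in 7.657% of all windows, the ETS motif CCGGAAG, in 10.26%, and the paired ETS core GGAAGGAA, in 3.674%. A match of letters is a description of the window and not a binding site. Lack of an exact match does not mean lack of a site, since ETS factors also bind other letters around GGAA. By chromatin immunoprecipitation, the paper reports FLI1 at a promoter site and at an exon site of *ISG15* in both lines. Neither primer that the paper lists for its promoter site occurs in the *ISG15* window above, so the search did not cover that site. A primer of its exon site does occur there, so the window and the exon site overlap in part.

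The libraries held between 12229780 and 28891055 counts, and in each line the control library was the shallower. Levels are CPM, the counts of a gene relative to all counts of the library, scaled by the trimmed mean of M values (TMM) over the 4 libraries, and 3 counts equal 0.10 to 0.262 CPM. Genes that reached 10 counts in 1 library of a pair were tested, and a gene was called when it differed by more than 2-fold and the 95% counting interval of its fold excluded no difference. With 1 library per arm there is no spread between replicates within a line, and such an interval covers the counting error of those libraries only. *VIM* (2986 to 7005 CPM), *CD44*, *SOX2* and *EGFR*, genes of glioblastoma cells, were plentiful in every library. The astroglial gene *GFAP* was at 634 CPM in control and 1587 CPM in shFLI1 cells of U87MG, and at 20.4 and 93.8 CPM in U251MG, while the astroglial gene *S100B* did not exceed 0.367 CPM. Of the marker genes of leukocytes, endothelium, neurons and epithelium that were analysed, *PTPRC*, *PECAM1*, *RBFOX3* and *CDH1* had at most 5 counts in any library and none exceeded 2.41 CPM.

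The targeted gene was lower in both shFLI1 libraries. *FLI1* stood at 9.34 CPM (107 counts) in U87MG control and 2.34 CPM (52 counts) in U87MG shFLI1 cells, and at 12.1 CPM (216 counts) and 3.71 CPM (111 counts) in U251MG. The knockdown left 25.0% of the control level in U87MG, a log2 fold change of -1.95 (95% counting interval -2.51 to -1.51), and 30.6% in U251MG, -1.68 (-2.05 to -1.37). The difference between the log2 fold changes was 0.27 with an interval from -0.32 to 0.90, so the depth of these libraries did not show that knockdown of *FLI1* differed between the lines. The shared effect over the 4 libraries, in which the cell lines are the only replicates and 1 residual degree of freedom remains, was -1.84 (edgeR's quasi-likelihood test with the cell line as a block, adjusted p = 0.0142).

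RNAs of the whole cascade were lower after *FLI1* knockdown, from the modifier through its E1, E2 and HERC ligases to its protease, and *TRIM25* differed least. In U87MG, 6 of the 7 genes were called lower and *TRIM25* was not, where 4.19% of the 17355 genes tested were called lower and 7.21% higher. In U251MG all 7 were called lower, where 4% of 18222 genes were called lower and 4.17% higher. The 6 genes other than *TRIM25* were called lower in both lines, as were 1.43% of the 16384 genes tested in both. The median log2 fold change of the 7 genes was -2.19 in U87MG and -3.04 in U251MG, beside 0.06 and 0.04 over all genes tested. In the shared effect all 7 genes fell, whereas 1.6% of 16821 genes fell and 0.654% rose (edgeR's quasi-likelihood test, adjusted p below 0.05). That call for the 7 genes needs the cell line block. Without it 0 of them passed, with adjusted p from 0.483 to 0.826 in edgeR's quasi-likelihood test, though all 7 had an unadjusted p below 0.05 there. Over all 16821 genes 712 had such an unadjusted p.

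**Figure D1:**
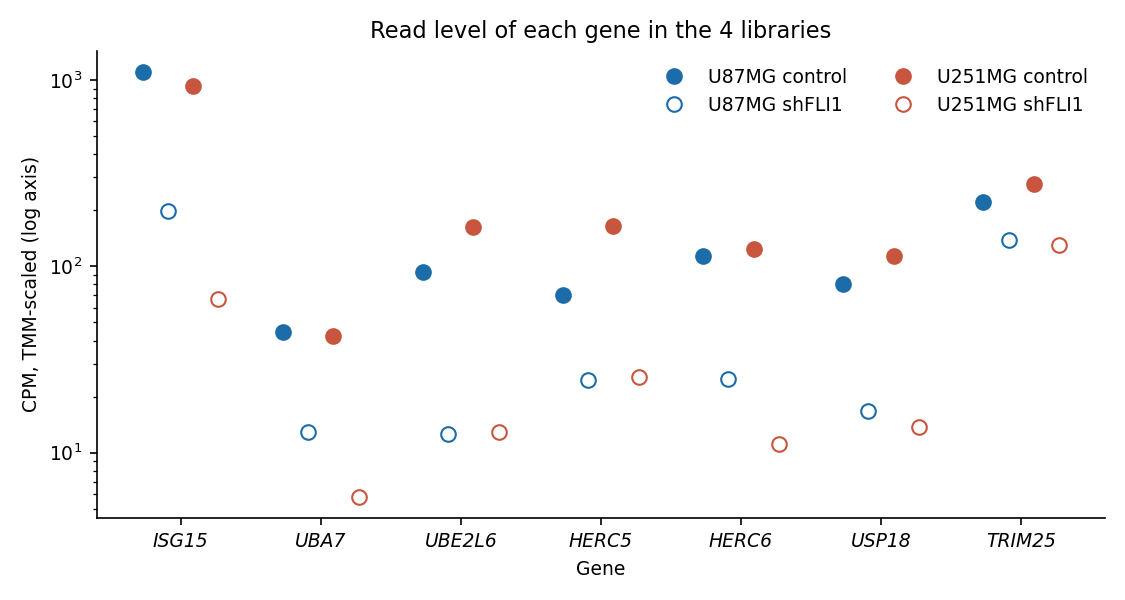
Level of each gene as TMM-scaled CPM on a log axis, with 1 point per library (blue, U87MG; red, U251MG; filled, control; open, shFLI1). For every gene the open point lies below the filled point of the same line, by least for *TRIM25* (222 against 138 CPM in U87MG).

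*ISG15*, which encodes the modifier, lies at chr1:1013497-1014540 on GRCh38 and has 2 exons. Its level was 1105 CPM in U87MG control, 199 CPM in U87MG shFLI1, 925 CPM in U251MG control and 67.0 CPM in U251MG shFLI1 cells, from 12651, 4420, 16497 and 2007 counts. Both control libraries were thus above both shFLI1 libraries, and the lowest level was that of U251MG shFLI1. The level left after knockdown was 18.0% of control in U87MG, a log2 fold change of -2.47 (95% counting interval -2.52 to -2.43). In U251MG it was 7.24%, a log2 fold change of -3.79 (-3.85 to -3.72). Ordered from the lowest log2 fold change, *ISG15* was gene 125 of 17355 in U87MG and gene 44 of 18222 in U251MG. The shared log2 fold change was -3.13 (edgeR's quasi-likelihood test, adjusted p = 0.0048). The table holds a single linear RNA of this gene, so its level does not depend on how counts were split among transcripts.

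*UBA7* encodes the E1 enzyme that activates ISG15, and spans chr3:49805209-49813953 on the minus strand with 24 exons. It was at 44.5 CPM in U87MG control and 12.9 CPM in U87MG shFLI1, and at 42.1 CPM in U251MG control and 5.81 CPM in U251MG shFLI1 cells. The controls of the lines were alike, with a log2 ratio of U251MG to U87MG of -0.08 (95% counting interval -0.24 to 0.09), while the shFLI1 libraries were not. *UBA7* stood at 28.9% of control in U87MG (log2 fold change -1.78, -2.0 to -1.58) and 13.8% in U251MG (-2.84, -3.10 to -2.62). Its shared log2 fold change was -2.31 (edgeR's quasi-likelihood test, adjusted p = 0.00704).

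*UBE2L6* encodes the E2 enzyme that takes ISG15 from UBA7, and lies at chr11:57551662-57567935 on the minus strand. Its level was 93.6 CPM in U87MG control against 12.6 CPM in U87MG shFLI1, and 162 CPM in U251MG control against 12.9 CPM in U251MG shFLI1 cells. The controls thus differed while the shFLI1 libraries were close to each other. What was left was 13.4% of control in U87MG, a log2 fold change of -2.88 (95% counting interval -3.09 to -2.70). In U251MG 7.93% was left, a log2 fold change of -3.65 (-3.81 to -3.50). *UBE2L6* had the lowest log2 fold change of the 7 genes in U87MG, as gene 91 from the lowest of all, and its shared log2 fold change was -3.28 (edgeR's quasi-likelihood test, adjusted p = 0.00115).

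*HERC5* and *HERC6* encode related HECT ligases and are neighbours on chromosome 4, with *HERC6* at 88378852 to 88443097 and *HERC5* at 88457119 to 88506163, both on the plus strand and 14022 bases apart. HERC5 is the main ligase for ISG15 in human cells and binds ribosomes, so that newly made proteins are modified. *HERC5* was at 70.6 CPM in U87MG control, 24.4 CPM in U87MG shFLI1, 166 CPM in U251MG control and 25.5 CPM in U251MG shFLI1 cells. The control levels differed while the shFLI1 levels were again close, as for *UBE2L6*. The fraction left was 34.6% in U87MG (log2 fold change -1.53, 95% counting interval -1.69 to -1.37) and 15.4% in U251MG (-2.69, -2.81 to -2.58). The shared log2 fold change was -2.13 (edgeR's quasi-likelihood test, adjusted p = 0.0106).

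HERC6 is the main ISG15 ligase of mice, and its human counterpart has a lesser part in conjugation. *HERC6* was at 113 CPM in U87MG control and 24.7 CPM in U87MG shFLI1, and at 124 CPM in U251MG control and 11.1 CPM in U251MG shFLI1 cells. The control levels were close to each other, with a log2 ratio of 0.13 (95% counting interval 0.03 to 0.23), and the U251MG shFLI1 library was the lower of the knockdown pair. It stood at 21.8% of control in U87MG (log2 fold change -2.19, -2.34 to -2.05) and 8.99% in U251MG (-3.46, -3.65 to -3.31), with a shared log2 fold change of -2.83 (edgeR's quasi-likelihood test, adjusted p = 0.0048). An annotated long non-coding RNA, LOC102723458, overlaps both HERC genes and was at 1.48 CPM in U87MG control, 1.08 CPM in U87MG shFLI1, 2.19 CPM in U251MG control and 0.868 CPM in U251MG shFLI1 cells, from 17, 24, 39 and 26 counts. It was called lower in U251MG, with a log2 fold change of -1.24 (95% counting interval -2.11 to -0.58), and not in U87MG, with -0.43 (-1.42 to 0.53). No strand setting of the counting is given in the sources used here, so reads of overlapping genes cannot be told apart by strand.

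*TRIM25* encodes a RING ligase that acts on 14-3-3σ with ISG15 and also ubiquitinates the RNA sensor RIG-I, and it lies at chr17:56887909-56914049 on the minus strand. Its level was 222 CPM in U87MG control, 138 CPM in U87MG shFLI1, 276 CPM in U251MG control and 129 CPM in U251MG shFLI1 cells. The control libraries were the higher pair, by a smaller margin than for the other genes. The fraction left was 62.3% in U87MG, a log2 fold change of -0.68 (95% counting interval -0.76 to -0.61), which is short of the 2-fold limit. It was 46.9% in U251MG, -1.09 (-1.15 to -1.03), just past it. The shared log2 fold change of -0.89 passed (edgeR's quasi-likelihood test, adjusted p = 0.0386) and no longer did with libraries scaled by total counts (adjusted p = 0.0617).

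*USP18* encodes the protease that removes ISG15 from proteins, and its product also damps interferon signalling at the receptor chain IFNAR2. It spans chr22:18150170-18177397 on the plus strand with 11 exons. The level was 80.6 CPM in U87MG control, 16.7 CPM in U87MG shFLI1, 114 CPM in U251MG control and 13.8 CPM in U251MG shFLI1 cells, so the eraser of the modification was lower together with the writers. It stood at 20.7% of control in U87MG, a log2 fold change of -2.26 (95% counting interval -2.45 to -2.09), and at 12.1% in U251MG, -3.04 (-3.20 to -2.89). The shared log2 fold change was -2.66 (edgeR's quasi-likelihood test, adjusted p = 0.00186). *USP41*, a near-identical gene on the same chromosome, was not analysed here, so reads that both genes share make the *USP18* counts uncertain to that extent.

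**Figure D2:**
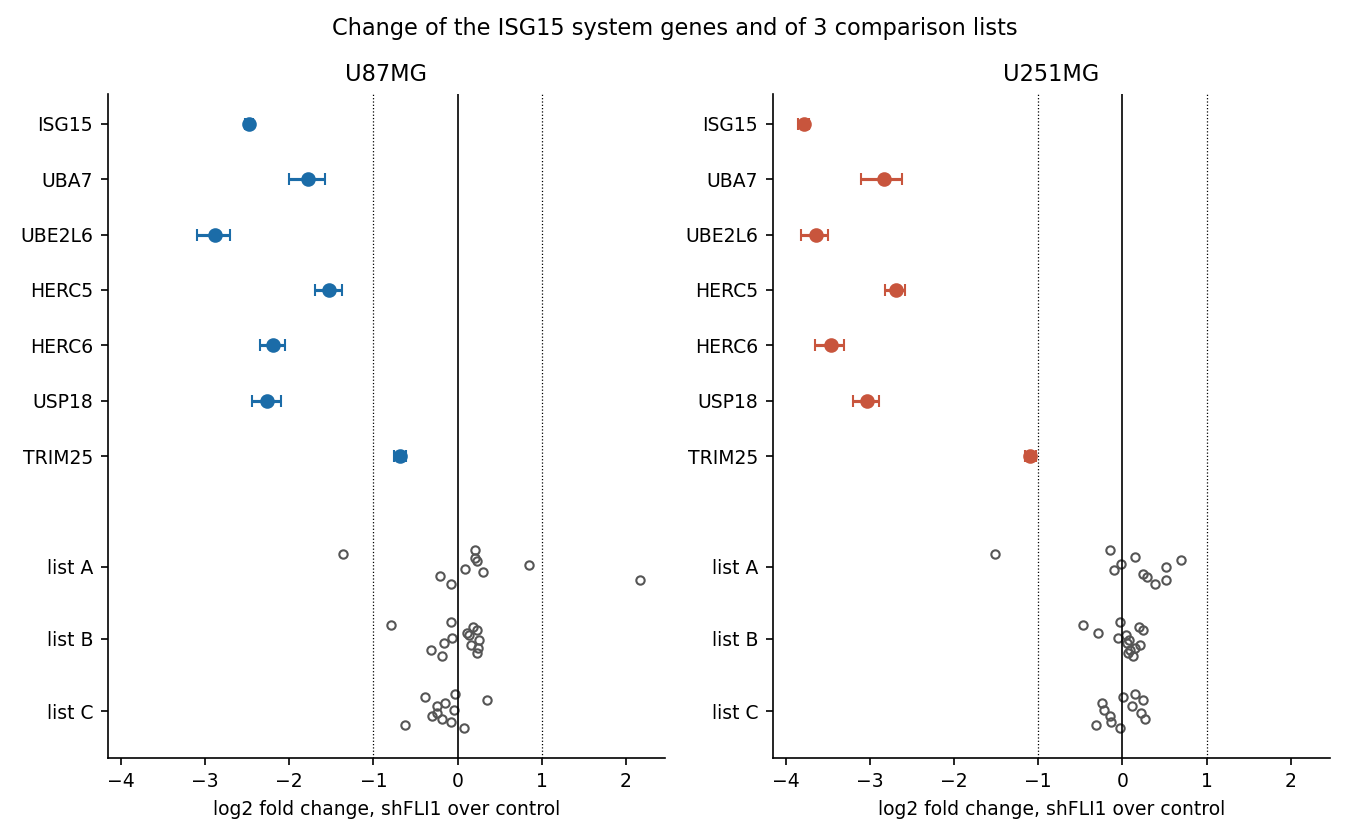
Log2 fold change of shFLI1 over control in U87MG (left) and U251MG (right), with 95% counting intervals for the 7 genes and 1 open circle per tested gene of 3 lists: A, other genes that act on or bind the ISG15 system; B, other E1, E2 and HERC genes; C, ubiquitin and other ubiquitin-like modifiers. Dotted lines mark 2-fold; list medians lie between -0.17 and 0.25, and *STAT2* is the circle of list A left of the dotted line in both panels.

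The fold in U251MG was further down than that in U87MG by more than 2-fold for 4 of the 7 genes, with a counting interval that excluded no difference, beside 4.05% of the 16384 genes compared. These were *ISG15*, with a difference of the log2 fold changes, U251MG minus U87MG, of -1.31 (95% counting interval -1.40 to -1.23), *HERC6* at -1.27 (-1.51 to -1.06), *HERC5* at -1.17 (-1.36 to -0.97) and *UBA7* at -1.05 (-1.39 to -0.74). *USP18*, at -0.78 (-1.02 to -0.54), *UBE2L6*, at -0.76 (-1.01 to -0.51), and *TRIM25*, at -0.41 (-0.51 to -0.31), differed in the same direction by less than 2-fold. The intervals of *UBA7* and *HERC5* reached differences smaller than 2-fold. By log2(FPKM + 1) the difference for *UBA7* was -0.87, short of 2-fold. By the most abundant RNA of each gene, that for *HERC6* was -0.55 (-0.81 to -0.30), also short of it. For *FLI1* itself the difference was 0.27, with an interval from -0.32 to 0.90 that included 0. Whether the extent of *FLI1* knockdown bears on the deeper folds in U251MG was not tested. No interaction between line and knockdown could be tested, since 4 libraries leave no residual degree of freedom for it.

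Between the control libraries of the lines, levels were within 2-fold of each other for 6 of the 7 genes. *HERC5* was the exception, 2.35-fold higher in U251MG control than in U87MG control cells, a log2 ratio of 1.23 (95% counting interval 1.12 to 1.34). Of 16391 genes compared between the control libraries, 9.72% were called higher in U251MG and 5.39% lower. Most genes compared were thus not called either, and the 7 genes did not stand apart in this. *UBE2L6*, with a log2 ratio of 0.79 (0.69 to 0.89), *USP18*, with 0.50 (0.38 to 0.61), and *TRIM25*, with 0.31 (0.24 to 0.38), were also higher in U251MG. *ISG15* itself was slightly lower there, at -0.26 (-0.29 to -0.22).

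Levels of different genes can be compared only per length, for which the authors' FPKM, a fragment count relative to transcript length and to all mapped fragments, was summed over the linear RNAs of each gene and compared within a library. The pair of genes with the highest FPKM in each library took from 54.3% to 65.3% of its FPKM sum. *ISG15* was by far the most abundant of the 7 RNAs. It had 2727 FPKM in U87MG control and 2439 FPKM in U251MG control cells, where it was gene 25 and gene 30 from the highest, and 534 and 186 FPKM in the shFLI1 cells, where it was gene 172 and gene 454. Its FPKM was 11 times the sum of the 6 enzyme genes in U87MG control, 7.25 times in U87MG shFLI1, 6.20 times in U251MG control and 3.02 times in U251MG shFLI1 cells. The ratio was smaller in the shFLI1 library of each line, and much of that difference came with *TRIM25*. Over the sum of the 5 enzyme genes without *TRIM25*, the ratio went from 13 in control to 11.7 in shFLI1 cells of U87MG and from 7.18 to 5.11 in U251MG. With 1 library per arm these ratios have no replicate check.

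Among the enzymes, the order of FPKM levels also differed between arms. In the control libraries *UBE2L6* led, with 91.2 FPKM in U87MG and 167 FPKM in U251MG, which was 36.6% and 42.4% of the FPKM of the 6 enzymes. *TRIM25* made up 15.7% and 13.7% there. In the shFLI1 libraries *TRIM25* led, with 28.1 FPKM in U87MG and 25.2 FPKM in U251MG, or 38.1% and 41.0% of the enzymes, and *UBE2L6* made up 18.4% and 22.6%. *UBA7* was the least abundant of the 7 in every library, with 14.3 FPKM in U87MG control, 4.80 FPKM in U87MG shFLI1, 14.2 FPKM in U251MG control and 2.15 FPKM in U251MG shFLI1 cells. The middle places were held by *USP18*, *HERC6* and *HERC5*, whose FPKM lay between 20.3 and 68.4 in the control and between 3.8 and 10.3 in the shFLI1 libraries. Neighbours such as *TRIM25* (39.0 FPKM) and *HERC6* (38.1 FPKM) in U87MG control cells cannot be ordered without replicates. Of the *HERC6* value there, 9.08 FPKM came from an RNA, URS0000EB8E1F, that held 3.26% of the gene's counts. The closeness of these genes thus depends on summing FPKM over RNAs.

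**Figure D3:**
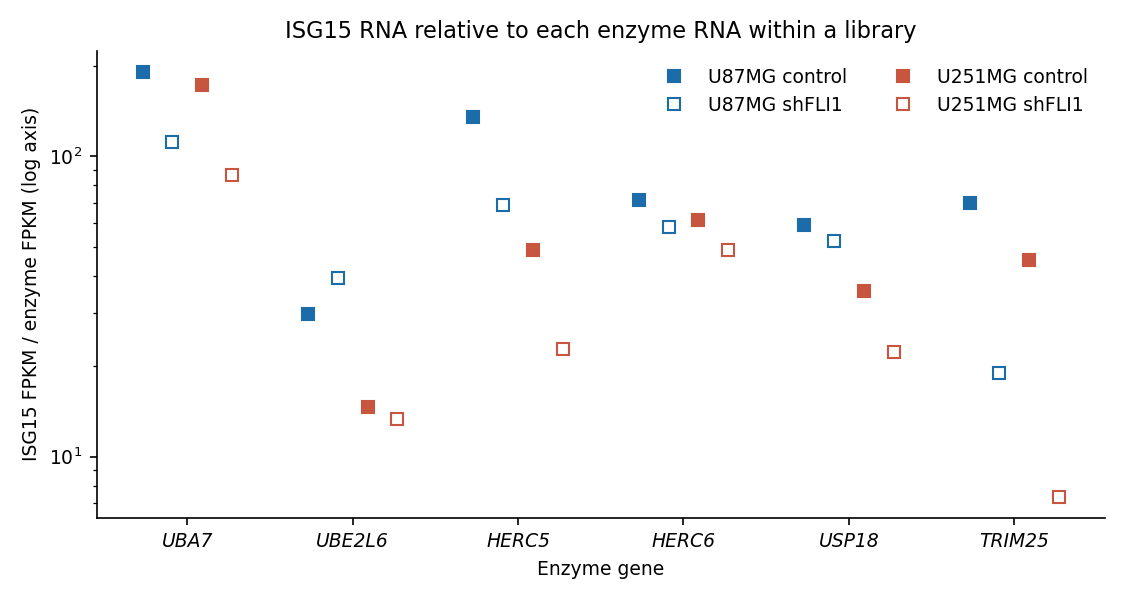
ISG15 FPKM divided by the FPKM of each enzyme gene within a library, on a log axis (blue, U87MG; red, U251MG; filled, control; open, shFLI1). The ratio to *TRIM25* falls from 69.9 to 19.0 in U87MG and from 45.1 to 7.37 in U251MG, while that to *UBE2L6* goes from 29.9 to 39.4 in U87MG and from 14.6 to 13.3 in U251MG.

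The ratio of *ISG15* to its protease gene changed little in U87MG, from 59.2 in control to 52.1 in shFLI1 cells, and went from 35.7 to 22.3 in U251MG. The ratio to the E1 gene *UBA7* was 191 and 111 in U87MG and 172 and 86.4 in U251MG. *UBE2L6* was the only enzyme gene for which the ratio was higher in an shFLI1 library than in the control of the same line, which was the case in U87MG.

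The annotated RNAs of *USP18* differed between the arms in their share of its counts. Estimated counts of NM_017414, its reference transcript, were 804 in U87MG control, 244 in U87MG shFLI1, 1710 in U251MG control and 254 in U251MG shFLI1 cells. Those of the predicted transcript XM_006724074 were 118, 126, 315 and 158 in the same order. XM_006724074 therefore held 12.8% of the *USP18* counts in U87MG control (95% Clopper-Pearson interval 10.7% to 15.1%) and 33.9% in U87MG shFLI1 cells (29.1% to 38.9%). In U251MG it held 15.5% (14% to 17.2%) in control and 38.3% (33.6% to 43.2%) in shFLI1 cells. The share was higher in the shFLI1 library of both lines, and the intervals of the arms did not overlap in either. These RNAs were picked after their values were seen. How often RNA shares of other genes differ in this way was not tested.

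The log2 fold change of NM_017414 was -2.67 in U87MG and -3.48 in U251MG. That of XM_006724074 was -0.85 in U87MG, which was not called, and -1.73 in U251MG. The log2 fold change of NM_017414 minus that of XM_006724074 was -1.81 (95% counting interval -2.25 to -1.38) in U87MG and -1.75 (-2.10 to -1.41) in U251MG. These counts are estimates that divide reads shared by both transcripts, and the intervals do not cover the error of that division.

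**Figure D4:**
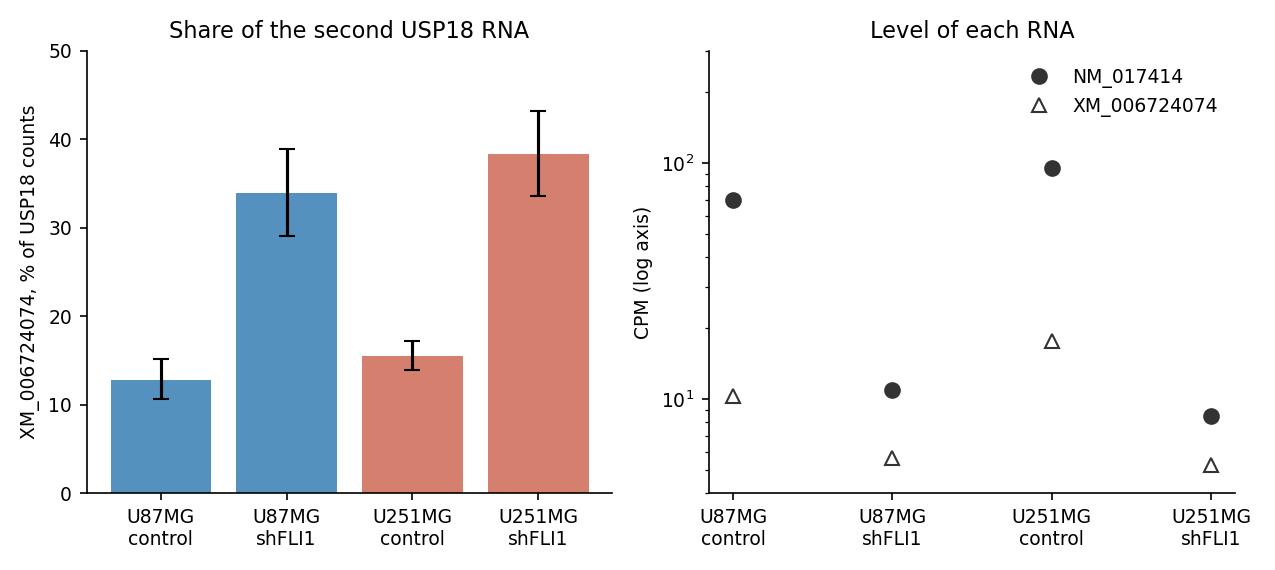
Left, share of *USP18* counts assigned to XM_006724074 in each library, with 95% Clopper-Pearson intervals; right, CPM of both *USP18* RNAs on a log axis. The share is 12.8% and 15.5% in the control libraries and 33.9% and 38.3% in the shFLI1 libraries.

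In *HERC6*, 1 RNA appeared in a single library. NM_001165136 held 205 estimated counts, 37.4% of the gene, in U87MG shFLI1 cells and 0 in the other 3 libraries, where a count of 0 allows for up to 3 counts. The most abundant *HERC6* RNA, NM_017912, had 1207, 308, 2027 and 305 counts in U87MG control, U87MG shFLI1, U251MG control and U251MG shFLI1 cells, log2 fold changes of -2.92 and -3.47. Taken by this RNA alone, the *HERC6* fold in U87MG was lower than that of the gene sum (-2.19), and the fold in U251MG was alike. In *HERC5* the reference RNA NM_016323 held at least 94.4% of the counts in every library, and *UBA7*, *UBE2L6* and *TRIM25* were likewise counted almost wholly through 1 RNA, so their folds do not turn on such a split.

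Of the other genes that act on ISG15 or are bound by its pathway, *STAT2* was the only one called lower, in either line. The list held 12 genes, of which 1 was called lower in each line and 1, *USP2*, higher in U87MG. Of all genes tested in U87MG 4.19% were called lower and 7.21% higher, and in U251MG 4% and 4.17%. By these shares a list of this size can hold a called gene. Medians of the log2 fold changes were 0.20 over 10 genes tested in U87MG and 0.25 over 11 in U251MG. *STAT2*, the ISGF3 subunit to which USP18 binds, was at 147 CPM in U87MG control, 57.3 CPM in U87MG shFLI1, 212 CPM in U251MG control and 74.6 CPM in U251MG shFLI1 cells. Its log2 fold changes were -1.36 (95% counting interval -1.47 to -1.25) and -1.51 (-1.59 to -1.43), and it fell in the shared effect by 1.44 on the log2 scale (edgeR's quasi-likelihood test, adjusted p = 0.00391). *USP2*, a deubiquitinase that also reacts with ISG15, had 2, 25, 22 and 54 counts in U87MG control, U87MG shFLI1, U251MG control and U251MG shFLI1 cells, so its call in U87MG rests on 2 counts in the control. *USP16*, another such protease, had log2 fold changes of 0.85 and 0.52 and was not called, with adjusted p = 0.0959 for the shared effect in edgeR's quasi-likelihood test. *ITGAL*, a subunit of the LFA-1 receptor for free ISG15 on lymphocytes, had at most 5 counts and was not tested, and its partner *ITGB2* had at most 40 counts and the highest log2 fold change of the list in U251MG, 0.70.

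The paralogs of the cascade stayed within 2-fold of control. Of 14 other E1, E2 and HERC genes 0 were called in either line or in the shared effect, where 0 passed by DESeq2 and 1 had an unadjusted p below 0.05 in edgeR's quasi-likelihood test. Over all genes tested, 4.19% were called lower and 7.21% higher in U87MG, and 4% and 4.17% in U251MG. In the shared effect 1.6% were lower and 0.654% higher, so a list of this size need not hold a called gene. Of the 16821 genes in that test, 2712 had an unadjusted p below 0.05. Their median log2 fold changes were 0.13 and 0.07. *UBA1*, the E1 of ubiquitin and the paralog of *UBA7*, had log2 fold changes of -0.18 and 0.13, and *UBE2L3*, the nearest paralog of *UBE2L6*, of -0.07 and -0.05. *HERC3*, a small HERC gene on the same chromosome as *HERC5* and *HERC6*, had the lowest of this list, -0.80 in U87MG and -0.47 in U251MG, and did not pass the shared test (adjusted p = 0.117, edgeR's quasi-likelihood test). The highest values were 0.25 for *NAE1*, a subunit of the E1 of NEDD8, in U87MG and 0.25 for *HERC1* in U251MG.

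Ubiquitin and the other ubiquitin-like modifiers were within 2-fold of control as well. Of 13 genes 12 were tested, and 0 were called in either line or in the shared effect, where 0 passed by DESeq2 and 1 had an unadjusted p below 0.05 in edgeR's quasi-likelihood test. Beside the same shares of all genes, a list of this size need not hold a called gene either. The 2712 of 16821 genes with an unadjusted p below 0.05 apply here as well. Their medians were -0.17 in U87MG and -0.01 in U251MG. The highest log2 fold changes were those of *URM1* in U87MG, 0.36, and *RPS27A*, which encodes ubiquitin fused to a ribosomal protein, in U251MG, 0.27. The interferon-inducible modifier *UBD* (FAT10) had 3 counts in U87MG control and 0 in the other libraries, so no change could be measured.

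Genes next to the 7 on their chromosomes were also read. *HES4*, a repressor of the hairy family 13400 bases from *ISG15*, was lower as well, at 40.0 CPM in U87MG control, 13.2 CPM in U87MG shFLI1, 80.6 CPM in U251MG control and 24.8 CPM in U251MG shFLI1 cells. Its log2 fold changes were -1.59 and -1.70, and it fell in the shared effect (adjusted p = 0.00281, edgeR's quasi-likelihood test). *AGRN*, which encodes agrin and lies 5580 bases from *ISG15* on the other side, had log2 fold changes of -0.72 and -0.44 and was not called in either line. Its shared effect did not pass edgeR's quasi-likelihood test (adjusted p = 0.162) but passed by DESeq2 (log2 fold change -0.60, DESeq2 adjusted p = 0.0284).

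Next to *UBE2L6*, *SERPING1*, the gene of the complement C1 inhibitor, had 3 counts in U87MG control, 0 in U87MG shFLI1, 68 in U251MG control and 3 in U251MG shFLI1 cells, and *SMTNL1* had 5, 3, 18 and 1. Both were called lower in U251MG on these few counts and were not tested in U87MG. *INKA1*, 179 bases from *UBA7*, and *PPM1K*, 94291 bases from *HERC6*, were called lower in U251MG, at -1.30 and -1.03, and not in U87MG, where *INKA1* had -1.04 with a counting interval that included 0 and *PPM1K* -0.53. *TRAIP* beside *UBA7*, *PYURF* beside *HERC5*, *TUBA8* beside *USP18* and *DGKE* and *COIL* beside *TRIM25* were not called in either line. A microRNA gene inside *UBA7* (*MIR5193*), another inside *TRIM25* (*MIR3614*) and *GGTLC3* beside *USP18* were not analysed here.

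**Figure D5:**
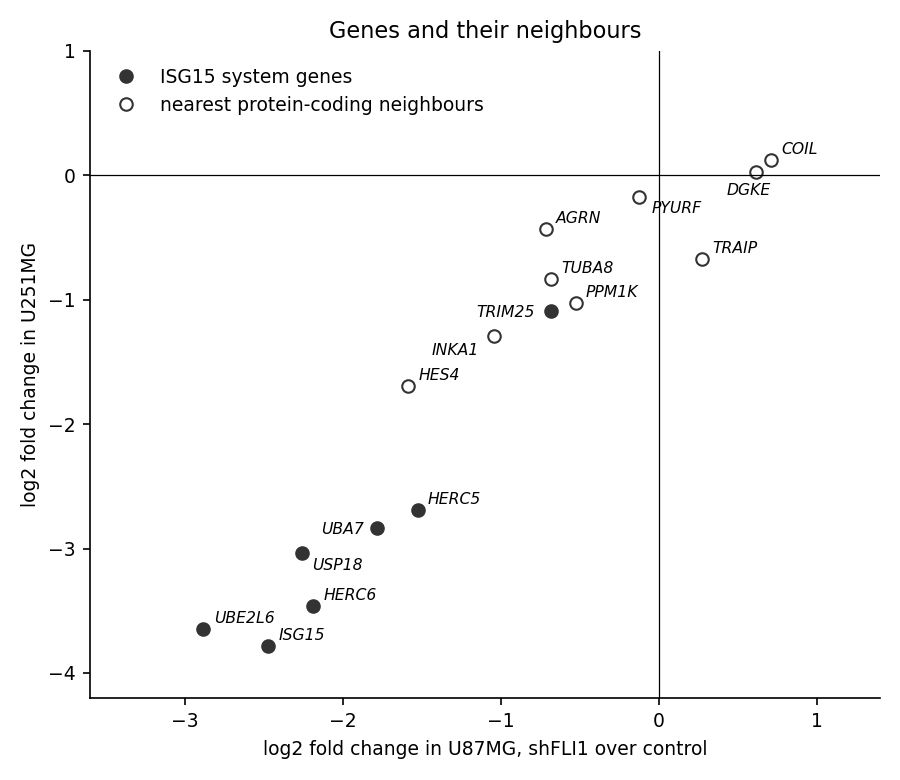
Log2 fold change of shFLI1 over control in U87MG (horizontal) and U251MG (vertical) for the 7 genes (filled) and for their nearest protein-coding neighbours tested in both lines (open). *HES4* at -1.59 and -1.70 lies closest to the group of 6, and *TRIM25* at -0.68 and -1.09 lies among the neighbours.

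The genes whose pattern over the 4 libraries was most like that of *ISG15* were other interferon-stimulated genes. Likeness was the root mean square difference of log2 CPM, each gene centred on its own mean, over the 12338 genes that reached 100 counts in some library. The closest was *LY6E*, a membrane-anchored protein that restricts viruses, at 0.14, whose log2 fold change was -2.85 in U87MG and -3.80 in U251MG. It was followed by *IFI6* at 0.30, *TRIM22* at 0.30, the RNA sensor gene *IFIH1* (MDA5) at 0.34 and *OAS1*, a synthetase of the RNase L pathway, at 0.38. Of the ISG15 system, *HERC6* was as close as these at 0.25, *UBA7* was at 0.44, *USP18* at 0.58, *UBE2L6* at 0.68, *HERC5* at 0.93 and *TRIM25*, the most distant, at 1.25. With 4 libraries these distances describe a likeness and carry no test.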

How the data were processed

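RNA-seq was analysed in 4 libraries, 1 control and 1 shFLI1 library of U87MG and of U251MG cells, grouped by their labels, with columns matched by their headings. Reads were mapped by the authors with HISAT2 on GRCh38, and StringTie gave the FPKM values. The deposited table holds 185042 linear RNAs, each with an estimated count per library that the authors did not normalize, made by a tool not given in the sources used here, and with the authors' FPKM. A further 10 value columns (TPM and means) were not used. The 31346 circular RNAs were not used. The labels and the paper name different mRNA library kits.

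Estimated counts were summed per gene identifier and rounded, and FPKM values were summed without further scaling. Of 24411 Entrez identifiers 23775 had a symbol in RefSeq. Estimated counts can be misdivided between transcripts and near-identical genes. The tools were edgeR 4.0.16, DESeq2 1.42.0 and limma 3.58.1 in R 4.3.3, and Python 3.11.15, with TMM scaling, a prior count of 2 and Clopper-Pearson intervals of the read proportion. Reads copied by PCR do not count separate molecules, and every interval or floor given is for counting error alone. Differences of folds were conditional odds ratios of 4 counts with exact intervals. The shared effect was edgeR's quasi-likelihood test over 4 libraries, with a block for cell line, filterByExpr and Benjamini-Hochberg adjustment over all genes tested. Nothing in the labels says that libraries are replicates of a group, and the spread behind its p-values is that between the lines.

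The 7 genes, the 3 comparison lists and the markers were chosen with earlier results of these data known, and the lists are not independent evidence. Named were the 7 genes, *FLI1*, their nearest paralogs, genes of each list called in both lines and those with its largest and smallest folds, nearest protein-coding neighbours, and the 5 genes with the pattern nearest to *ISG15*. *USP16*, *ITGAL*, *UBD*, the overlapping genes and the single RNAs were added after their values were seen. Some genes within this rule are not reported by name here. The scripts were tested on simulated counts. Alternatives covered scaling, count filters, prior counts, thresholds, FPKM, DESeq2, limma and the most abundant RNA of each gene. The sum of enzymes without *TRIM25* and the differences of folds by the most abundant RNA were chosen after seeing the data. Sequences are from NCBI RefSeq tables of GRCh38.p14.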

Additional observations from a re-analysis of the deposited data

How the results depend on the processing

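The count of the 7 genes called lower stayed at 6 in U87MG and 7 in U251MG under other scalings, count filters, prior counts, FPKM and the most abundant RNA of each gene. It was 7 and 7 at a 1.5-fold and 4 and 6 at a 4-fold threshold. The shared effect called 7 genes in the main test and with DESeq2, and 6 with total counts. With all genes of at least 1 count it called 7 as well. The adjusted p of *ISG15* then went from 0.0048 to 2.98e-65 (edgeR's quasi-likelihood test), so the size of these p-values depends on the count filter. Without the cell line block the shared effect called 0 of the 7, and limma on log2(FPKM + 1) called 0, while all 7 had an unadjusted p below 0.05 in both. Over all genes these tests called 0 in either direction, with 712 and 2248 genes at an unadjusted p below 0.05. Between the controls, 1 gene differed at 2-fold and 2 at 1.5-fold. Folds that differed between the lines numbered 4, with 6 at 1.5-fold, 3 by FPKM, without *UBA7*, and 3 by the most abundant RNA, without *HERC6*. Of 147 single-gene values under alternatives, 104 kept their call or stayed within the counting interval, 28 moved beyond it, 15 lost their call and 0 changed direction. Blocking by cell line makes the shared effect a comparison within lines, and the labels give no replicate numbers for any other pairing. With 1 library per arm no library could be left out.

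Over all genes, calls lower and higher were 727 and 1252 in U87MG and 728 and 760 in U251MG. They were 265 and 290, and 265 and 135, with at least 100 counts, 306 and 524, and 300 and 238, by log2(FPKM + 1), 1465 and 2064, and 1323 and 1487, at 1.5-fold, and 195 and 456, and 245 and 297, at 4-fold. By log2(FPKM + 0.1) 1917 were higher in U87MG. Total counts gave 571 and 1709 in U87MG and 656 and 911 in U251MG and moved the median of all genes in U87MG from 0.06 to 0.22. The shared calls, 269 lower and 110 higher, were 736 and 567 with all genes that had 1 count or more, and 198 and 166 with total counts. The sum of *USP18* and *USP41* was not run because *USP41* was not analysed here. Depth limits what can be said of *UBD*, *ITGAL*, *SMTNL1*, *SERPING1* and *INKA1*, which had few counts.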
